A study of Homo sapiens with 4 samples.

Results

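SNORA71A, SNORA71B, SNORA71C and SNORA71D are 4 H/ACA small nucleolar RNAs (snoRNAs) of one family, encoded side by side on chromosome 20. They were taken by name from the deposited tables, which gave 4 entries in HT-29 and 2 in CaCo-2, 5 different transcripts in all, out of 10098 gene names listed in either table. The study measured RNA that came down with beta-catenin, which carries the Wnt signal into the nucleus and switches on target genes there. The material was nuclear lysate of human colon adenocarcinoma cells of 2 untreated lines named HT-29 and CaCo-2. Each line had 1 input library, made with no antibody, and 1 RNA immunoprecipitation (RIP) library, made with a beta-catenin antibody. There was thus 1 library per group and no replicate error, and no test was made here. No precipitation with another antibody was analysed here. The tables list only transcripts at least 1.5-fold higher in the RIP, so the direction of every listed value was fixed by that choice, and the copies themselves were picked with their values known.

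H/ACA snoRNAs fold into hairpins followed by the short H and ACA boxes, and pair with ribosomal RNA so that a bound enzyme, dyskerin, converts a chosen uridine to pseudouridine. Most of them in vertebrates lie in introns of a host gene and are trimmed out of the excised intron rather than transcribed by themselves. They act in the nucleolus, while their relatives, the scaRNAs, act on spliceosomal RNAs in Cajal bodies. The SNORA71 RNAs, first called U71, are guides for ribosomal RNA.

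All 4 copies lie on the minus strand of chromosome 20 (hg19) within SNHG17, a non-coding snoRNA host gene. SNORA71D (ENST00000363484, 37062508 to 37062641) is nearest to the 5′ end of the host, 1355 nucleotides from the most upstream start among the listed SNHG17 entries. SNORA71C (ENST00000364642, 37058313 to 37058446) follows after a gap of 4061 nucleotides, SNORA71A (ENST00000364729, 37055952 to 37056085) after a further 2227, and SNORA71B after 1972 more. Each of these snoRNA entries spans 134 nucleotides. SNORA71B has a pair of entries that overlap by 133 nucleotides, one of class snoRNA (ENST00000364546, 37053846 to 37053979), listed only in CaCo-2, and one of class lincRNA with a span of 136 nucleotides (ENST00000439232, 37053843 to 37053978), listed only in HT-29. Because the host encodes all 4 copies, the sequence around its start is shown beside that of SNHG11, the neighbouring snoRNA host, which carries the related SNORA71E. Both are RefSeq sequences of GRCh38.p14, from 250 bases before to 50 after the annotated start. Capitals mark the 3 runs of 9 or more bases that the windows share in the same order.
SNHG17: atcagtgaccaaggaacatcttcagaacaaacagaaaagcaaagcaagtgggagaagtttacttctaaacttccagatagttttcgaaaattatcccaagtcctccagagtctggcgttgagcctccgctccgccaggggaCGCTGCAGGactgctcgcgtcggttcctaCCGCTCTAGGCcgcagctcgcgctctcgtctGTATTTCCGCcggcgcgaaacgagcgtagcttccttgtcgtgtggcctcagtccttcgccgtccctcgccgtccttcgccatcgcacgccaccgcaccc
SNHG11: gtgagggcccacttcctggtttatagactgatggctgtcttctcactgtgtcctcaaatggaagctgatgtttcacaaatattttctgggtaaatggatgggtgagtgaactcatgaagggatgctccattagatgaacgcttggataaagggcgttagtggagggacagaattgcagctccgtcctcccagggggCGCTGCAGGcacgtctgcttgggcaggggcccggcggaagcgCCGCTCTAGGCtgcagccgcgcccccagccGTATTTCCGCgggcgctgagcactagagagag
The SNHG17 window is chr20:38435279-38435578 on the minus strand and the SNHG11 window chr20:38446404-38446703 on the plus strand. On either strand, the shared run CCGCTCTAGGC was found in 15 of 35116 such windows (0.0427%), GTATTTCCGC in 19 (0.0541%) and CGCTGCAGG in 272 (0.775%), these 2 windows included. The letters TATAAA were present in 11.5% of all windows on either strand. The SNHG11 window holds them only on the opposite strand, printed as TTTATA, and the SNHG17 window on neither strand. CCAAT, present in 34.6% on either strand, was found in neither window.

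Levels are in FPKM, fragments scaled by transcript length and library size, and this unit is very large for RNAs as short as these. Among unspliced short RNAs of 124 to 144 nucleotides other than the SNORA71 copies, nearly all values were whole multiples of a smallest step that depends on the span. In HT-29, 42 of 43 input values and 54 of 55 RIP values below 50 steps were whole within 1%, and in CaCo-2 all 9 of 9 and 28 of 28 were. The step was therefore taken as 1 fragment. For a span of 134 nucleotides it was worth 29.2 FPKM in the HT-29 input, 28.1 in the HT-29 RIP, 16.4 in the CaCo-2 input and 14.4 in the CaCo-2 RIP. The CaCo-2 input value was interpolated from neighbouring spans. Fragment numbers given below are these implied numbers. Their 95% intervals, exact Poisson for a level, exact Clopper-Pearson for a ratio or share, cover counting error only. The copies belong to one family, and how reads that match more than 1 of them were assigned is not given in the sources used here, so the split among copies is uncertain.

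In HT-29, every copy was abundant in the RIP library. Input held SNORA71A at 816.8 FPKM and the RIP at 6200.2, which corresponds to 28 and 221 fragments. SNORA71C was at 321 and 4405 FPKM, or 11 and 157 fragments. SNORA71D was at 58.3 and 3254 FPKM, or 2 and 116 fragments. The 3 copies thus kept the same order in both libraries, SNORA71A above SNORA71C above SNORA71D. The lincRNA entry of SNORA71B had an input of 0 and a RIP level of 1480.5 FPKM, or 59 fragments. A count of 0 allows up to 3 fragments, 76.6 FPKM at this span, and the Poisson interval reaches 94.2 FPKM. Fragments could also have gone to the overlapping snoRNA entry, which was not listed in HT-29, so no fold is given for SNORA71B.

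The ratio of RIP to input was 7.59 for SNORA71A (95% counting interval 5.11 to 11.7), 13.7 for SNORA71C (7.46 to 28.1) and 55.8 for SNORA71D (15.1 to 466). The order of the folds was the reverse of the order of the levels. The fold of SNORA71D was 7.35 times that of SNORA71A (exact conditional interval 1.79 to 64.5), a difference that rests on 2 input fragments of SNORA71D. SNORA71C and SNORA71A could not be separated in this way, with a ratio of folds of 1.81 (0.841 to 4.15), nor could SNORA71D and SNORA71C, at 4.06 (0.859 to 38.3). All 4 entries reached a 2-fold higher level in the RIP on the scale of log2(FPKM + 1), where 56.0% of all listed HT-29 transcripts were. SNORA71B and the other transcripts listed at 0 in input, 3137 in all, reach it in any case. Without them the share was 35.5%. By the authors' deposited table, a total of 2 of 4 had q at or below 0.05, where 3.08% of listed transcripts did. That q was 8.01e-05 for SNORA71A and 0.00185 for SNORA71C in the authors' deposited table. For SNORA71B the authors' deposited table gave 0.0728 and for SNORA71D 0.0926. Since the copies were chosen from this comparison, these counts describe them and support nothing further.

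**Figure D1:**
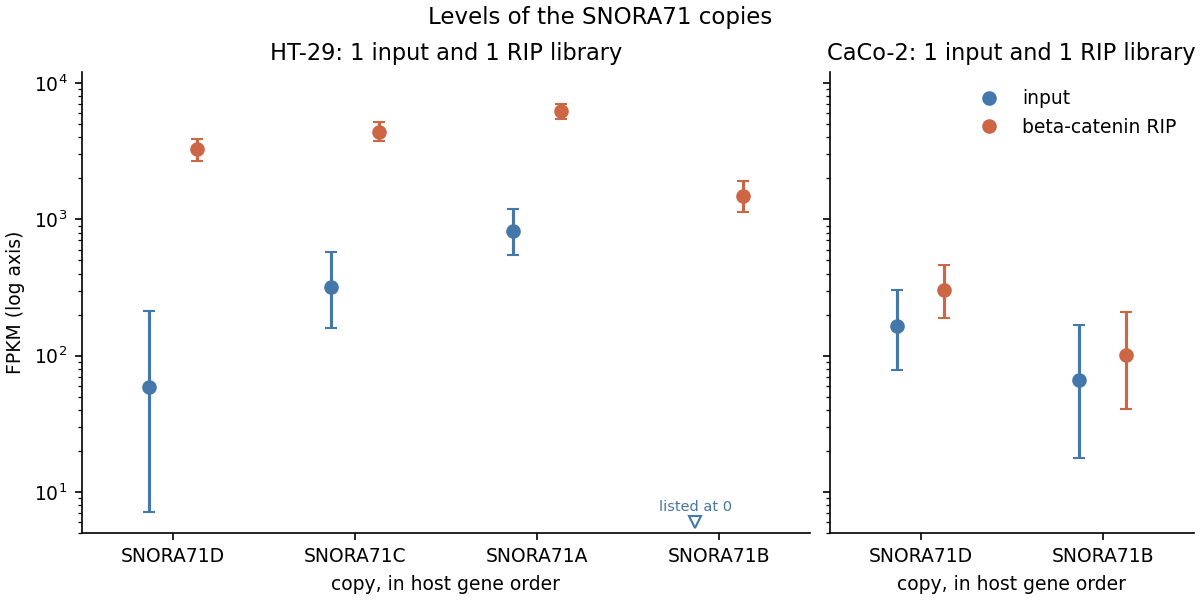
FPKM of each listed SNORA71 entry on a log axis, in input (blue) and beta-catenin RIP (orange), for HT-29 and CaCo-2, with copies from the 5′ end of the host onward; bars are 95% Poisson intervals of the implied fragments and the open triangle marks an input listed at 0. In HT-29 the RIP points lie between 1480.5 and 6200.2 FPKM, well above the input points, while in CaCo-2 the intervals of input and RIP overlap for SNORA71D and SNORA71B.

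SNORA71A and SNORA71D lay closer to each other in the HT-29 RIP than in the input, by the ratio of folds above, which rests on 2 input fragments of SNORA71D; for the other pairs the change was within counting error. In input, SNORA71A was 14.0 times SNORA71D (3.53 to 121) and 2.55 times SNORA71C (1.23 to 5.67), and SNORA71C was 5.50 times SNORA71D (1.20 to 51.1). In the RIP the same ratios were 1.91 (1.51 to 2.41), 1.41 (1.14 to 1.74) and 1.35 (1.06 to 1.74). The lincRNA entry of SNORA71B was the lowest listed entry there, with SNORA71D 2.20 times (1.59 to 3.06) and SNORA71A 4.19 times (3.13 to 5.68) its level. Any fragments of the overlapping snoRNA entry are not in that level, so the place of the SNORA71B copy itself is not known. Each neighbouring pair of listed entries in the order of RIP levels differed by more than counting error, which leaves the unmeasured error between libraries aside.

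Summed over the 4 listed entries, the HT-29 input held 41 implied fragments and the RIP 553. The snoRNA entry of SNORA71B is not in these sums, so the shares are those of the listed entries. SNORA71A supplied 68.3% of the input fragments (51.9 to 81.9) and 40.0% of those in the RIP (35.9 to 44.2). SNORA71D supplied 4.88% (0.596 to 16.5) and 21.0% (17.7 to 24.6). The intervals of input and RIP did not overlap for either of these copies. For SNORA71D the limits lay close, at 16.5 and 17.7, and its input share rests on 2 fragments. Shares within a library depend on each other, so this contrast is not separate from the ratio of folds above. SNORA71C supplied 26.8% (14.2 to 42.9) and 28.4% (24.7 to 32.3), with overlapping intervals. The listed SNORA71B entry supplied 0 of 41 input fragments, which allows a share of up to 7.32% by the limit of 3 counts and 8.60% by the Clopper-Pearson interval. It supplied 10.7% of the RIP fragments (8.22 to 13.5), an interval that overlaps the latter limit.

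**Figure D2:**
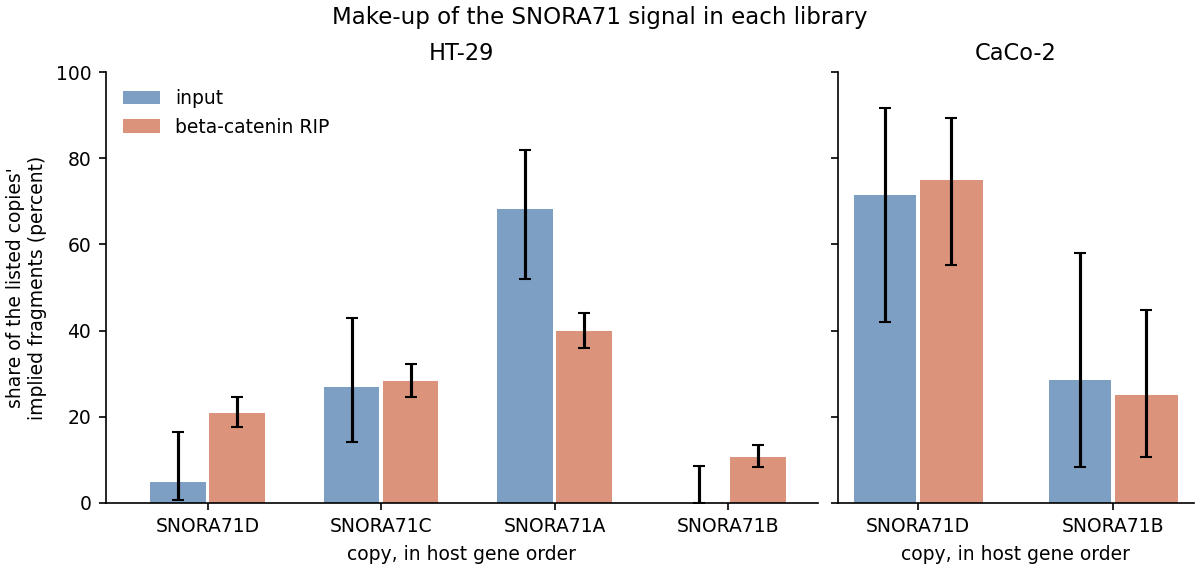
Share of each copy, in percent, among the implied fragments of all listed SNORA71 entries of a library, for input (blue) and RIP (orange); bars start at 0 and black lines are 95% Clopper-Pearson intervals. In HT-29 the share of SNORA71A is 68.3% in input and 40.0% in the RIP, and that of SNORA71D 4.88% and 21.0%. In CaCo-2, where SNORA71A and SNORA71C were not listed, the shares of the remaining pair are similar in both libraries.

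In CaCo-2 the listed copies, SNORA71D and SNORA71B, were between 66.0 and 303 FPKM over both libraries. Input held SNORA71D at 163.8 FPKM and the RIP at 303, or 10 and 21 fragments, a ratio of 1.85 (0.833 to 4.39). The snoRNA entry of SNORA71B was at 66.0 and 101 FPKM, or 4.03 and 7 fragments, a ratio of 1.53 (0.391 to 7.17), just inside the limit of 1.5 for being listed. Both intervals include 1, so a difference between RIP and input was not detectable at this depth for either copy. On the log2(FPKM + 1) scale the ratios were 0.88 and 0.61, so 0 of 2 entries reached 2-fold, against 40.8% of CaCo-2 transcripts that passed a filter of 1 FPKM in at least 1 library. With at least 1 FPKM in both libraries, as both copies had, that share was 13.1% of 2571 transcripts in CaCo-2 and 25.2% of 3429 in HT-29. Both had q of 1 in the authors' deposited table, with p of 0.452 for SNORA71D and 0.817 for SNORA71B, where 2.24% of listed transcripts had q at or below 0.05. SNORA71A and SNORA71C had no listed entry in CaCo-2. Only transcripts at least 1.5-fold higher in the RIP are listed, so the levels of these copies there are not known. In the RIP, SNORA71D was 3.0 times SNORA71B (1.23 to 8.35), and in input 2.48 times (0.721 to 10.9). SNORA71D supplied 71.4% of the 14 implied input fragments of this pair (41.9 to 91.6) and 75.0% of the 28 in the RIP (55.1 to 89.3).

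SNORA71D was the only entry listed in both lines, and the lines can be set side by side through it, with the reserve that the authors' tables were normalised separately for each line. Its RIP level was 10.8 times higher in HT-29 than in CaCo-2 (6.72 to 18.0), 3254 against 303 FPKM. Its input level was 58.3 FPKM in HT-29 against 163.8 in CaCo-2, 2.81 times higher in CaCo-2, with an interval of 0.598 to 26.4 that includes 1. The fold of RIP over input was 30.2 times larger in HT-29 (5.66 to 292), which rests on 2 input fragments of SNORA71D in HT-29. A scale common to both libraries of a line cancels in the fold, but the scaling of RIP against input within a line does not. For the listed H/ACA and scaRNA transcripts with input above 0, the median fold was also larger in HT-29, 6.54 against 2.59. With 1 library of each kind per line, a difference between lines and a difference between preparations cannot be told apart. SNORA71B was listed by different entries in the lines, with RIP levels of 1480.5 FPKM for HT-29 and 101 for CaCo-2, and these values were not compared further.

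Other H/ACA RNAs of exactly the same span give a comparison free of the effect of length on FPKM. They were picked after their values were seen. SNORA31, a guide for ribosomal RNA, was at 525 FPKM in the HT-29 input and 3591 in the RIP, or 18 and 128 fragments, a fold of 6.84 (4.16 to 11.9). The fold of SNORA71A was 1.11 times that of SNORA31 (0.555 to 2.17) and that of SNORA71C 2.01 times (0.860 to 4.87), while that of SNORA71D was 8.16 times (1.88 to 73.6). SNORA5A had a fold of 4.27 (2.04 to 10.02) from 9 and 40 fragments, and SCARNA18 one of 12.5 (1.88 to 531) from 1 and 13. In CaCo-2, SNORA31 was at 278 and 721 FPKM, a fold of 2.59 (1.47 to 4.78), and SNORA71D had 0.714 times that fold (0.257 to 2.06). SNORA31 too had a larger fold in HT-29 than in CaCo-2, by 2.64 times (1.17 to 5.90), so the larger fold in HT-29 held for both RNAs.

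**Figure D3:**
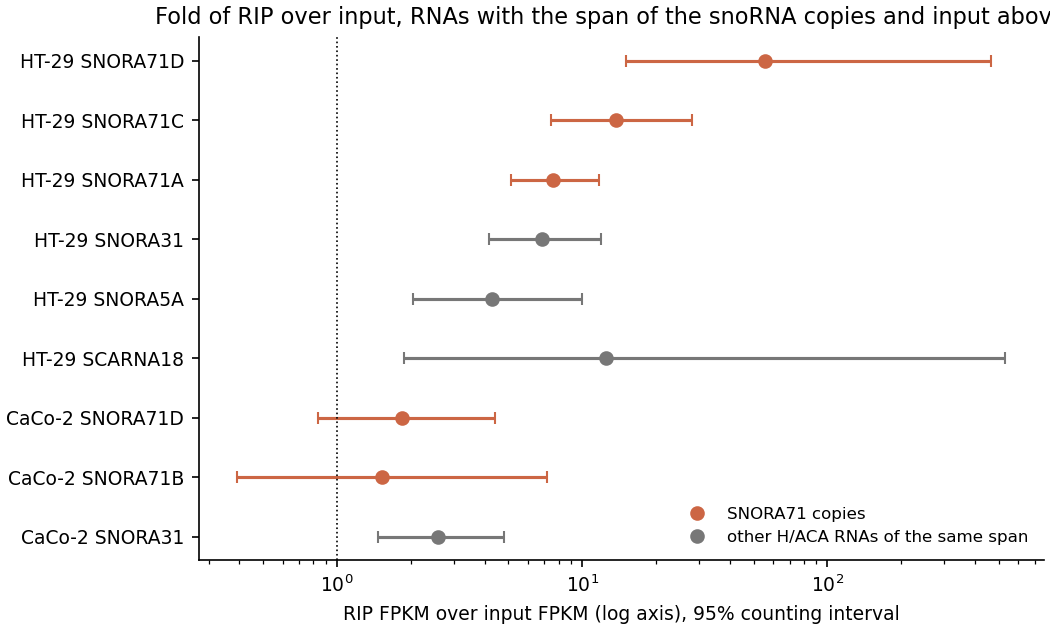
Fold of RIP FPKM over input FPKM on a log axis, with 95% Clopper-Pearson counting intervals, for SNORA71 copies (orange) and other H/ACA RNAs (grey) that span 134 nucleotides and have input above 0; the dotted line marks a fold of 1. SNORA71D in HT-29 stands at 55.8 with a wide interval, SNORA71A at 7.59 beside SNORA31 at 6.84, and the CaCo-2 copies at 1.85 and 1.53 have intervals that include 1.

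Among all 66 listed H/ACA and scaRNA transcripts of HT-29, SNORA71A had the highest RIP level, SNORA71C was 3rd, SNORA71D 6th and SNORA71B 15th. The transcript between SNORA71A and SNORA71C was a SNORA31 copy with a span of 130 nucleotides, at 5214 FPKM. Of the 46 with input above 0, SNORA71D had the highest fold, SNORA71C was 10th and SNORA71A 19th. The median fold of these 46 was 6.54, and that of the 43 left without the SNORA71 copies 5.90 (quartiles 2.84 and 10.1). Among 3429 HT-29 transcripts of any class with at least 1 FPKM in input, 3 had a higher fold than SNORA71D, 20 than SNORA71C and 48 than SNORA71A. Both places of SNORA71D by fold rest on 2 input fragments, with a fold interval of 15.1 to 466, so they are uncertain. Relative to the median log2 ratio of the H/ACA and scaRNA transcripts with input above 0, a set chosen after seeing the data, SNORA71A was at 0.22 on the log2(FPKM + 1) scale, SNORA71C at 1.08 and SNORA71D at 3.08. Relative to the median of all 66, 3.22, which transcripts with input at 0 raise, they were at -0.30, 0.55 and 2.56, so the sign for SNORA71A depends on this choice. In CaCo-2, SNORA71D was 5th and SNORA71B 9th by RIP level of 23 listed, and 9th and 13th by fold of the 13 with input above 0. The median fold of those 13 was 2.59. The log2 ratios of SNORA71D and SNORA71B were -0.47 and -0.75 relative to the median log2 ratio of the 13, and -1.66 and -1.93 relative to that of all 23, 2.54. A 2-fold higher RIP level was reached by 62 of 66 H/ACA and scaRNA transcripts in HT-29, with 20 of the 66 listed at 0 in input, where 56.0% of all transcripts reached it. In CaCo-2 it was reached by 17 of 23, with 10 of 23 at 0, where 40.8% of all did. The median log2 ratio over all transcripts that passed the filter was 1.14 for HT-29 and 0.82 for CaCo-2.

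**Figure D4:**
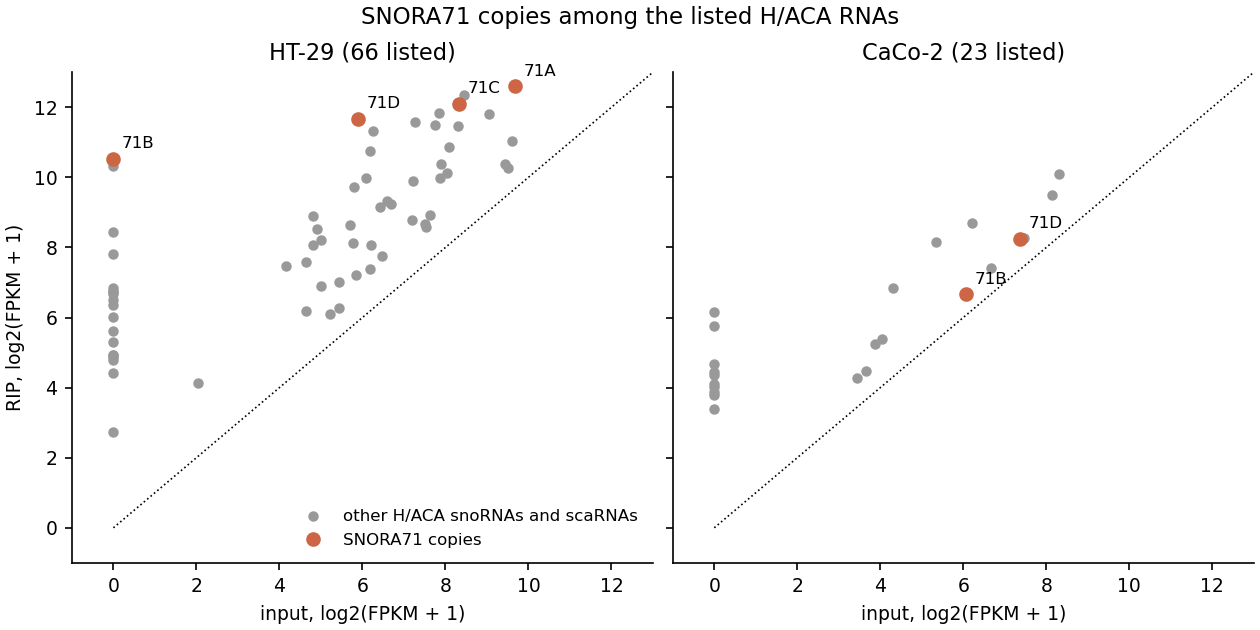
Input against RIP level, both as log2(FPKM + 1), for the 66 H/ACA and scaRNA transcripts listed in HT-29 and the 23 in CaCo-2, with SNORA71 copies in orange and labelled by their last letters; the dotted line marks equal levels and points at 0 on the horizontal axis have input listed at 0. In HT-29 the copies lie along the upper edge of the points, and in CaCo-2 SNORA71D and SNORA71B lie near the line of equal levels.

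The RNAs whose levels in both libraries were most like those of a copy were found by the distance between log2(FPKM + 1) values over the input and RIP library of a line. In HT-29, SNORA71A was nearest to SNORA31 of 134 nucleotides, at a distance of 1.01, and SNORA71C to SNORA31 of 130 nucleotides, at 0.27, with 351 FPKM in input and 5214 in the RIP. SNORA71D was nearest to an entry named SNORA74 with a span of 141 nucleotides, at 0.51, with 75.2 and 2547 FPKM. SNORA71B was nearest to SNORA46, at 0.03, which was likewise listed at 0 in input and reached 1511 FPKM in the RIP. In CaCo-2, SNORA71D was nearest to SNORA84, at 0.09, with 174.6 and 305 FPKM, and SNORA71B to SNORA80B, at 0.95, with 101 and 168 FPKM. SNORA71C was the 3rd nearest to SNORA71A in HT-29, at 1.43, and in none of the other cases was a SNORA71 copy among the nearest 3 of another.

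The host SNHG17 was listed in both lines at a few FPKM. In HT-29, a lincRNA transcript that spans all 4 copies (ENST00000413755, 37050839 to 37063996) had an input level of 0.825 FPKM and a RIP level of 1.61, a ratio of 1.96. A retained-intron transcript that spans SNORA71D alone (ENST00000424235, 37059423 to 37063977) had an input of 0 and a RIP level of 1.47. The same retained-intron transcript was at 1.90 and 4.02 FPKM in CaCo-2, a ratio of 2.12. The other CaCo-2 transcripts were ENST00000417578, which spans all 4 copies, at 2.61 and 4.72, a ratio of 1.81, and ENST00000456953, which spans SNORA71A, SNORA71C and SNORA71D, at 1.83 and 4.06, a ratio of 2.22. The listed host ratios with input above 0 were thus between 1.81 and 2.22 in the 2 lines. The CaCo-2 snoRNA copies, at 1.53 and 1.85, lay close to that range, and the HT-29 copies, at 7.59 to 55.8, lay above it. In HT-29 the only host ratio was 1.96. All listed ratios are at least 1.5, and the median over all transcripts with input above 0 that passed the filter was 2.46 in HT-29 and 2.21 in CaCo-2. Among such H/ACA and scaRNA transcripts of HT-29 the median was 6.54 and the lower quartile 2.99, so most of them also lay above the host ratios. Fragment numbers of the spliced host transcripts were not analysed here, so the host ratios carry no interval. The host's q was between 0.725 and 1 in the authors' deposited table.

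Across the remaining family and neighbourhood, little was listed. SNORA71E was listed in neither line. SNORA60, another H/ACA snoRNA, which lies within SNHG11 at 37078013 to 37078146, had an input of 0 in HT-29 and a RIP level of 28.1 FPKM, which is 1 fragment. For SNHG11 the RIP of HT-29 gave 1.67 FPKM from an input of 0, and that of CaCo-2 0.956 against 0.423 FPKM for a lincRNA transcript and 1.02 against 0 for a retained-intron transcript. The only other gene with a listed transcript within 50 kb was RALGAPB, a subunit of a GTPase-activating complex for Ral, at 1.47 against 0.963 FPKM in CaCo-2. Neighbouring snoRNAs of the same region, in different hosts, thus differed widely in the HT-29 RIP, from 1 fragment for SNORA60 to 221 for SNORA71A. Their input differed too, at 0 and 28 fragments.

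The partners of H/ACA RNAs were described through 13 fixed genes, those of proteins that package and assemble the particles and TERC, the telomerase RNA, which carries an H/ACA domain. In HT-29, transcripts of 8 were listed and the top transcript of 7 was at least 2-fold higher in the RIP, with a median log2 ratio of 1.56, against 56.0% of all transcripts and a median of 1.14. In CaCo-2, 10 were listed and 4 passed 2-fold, with a median of 0.78, against 40.8% and 0.82. A transcript with input at 0 and at least 1 FPKM in the RIP reaches 2-fold on this scale in any case. The 7 in HT-29 had input at 0, except SHQ1 at 7.64e-05 FPKM. In CaCo-2 an input of 0 was that of DKC1 and WRAP53. The count in HT-29 thus reflects inputs at or near 0. Each gene stands by its highest transcript here, while the shares over all count every transcript. The transcript with the highest RIP level can differ between the lines, as it did for GAR1, NHP2 and DKC1. GAR1, a core protein of the particle, reached 4.18 FPKM in the RIP of HT-29 from an input of 0, and 3.45 from 0.746 in that of CaCo-2. NOP10, another core protein, reached 14.2 from 0 and 3.96 from 1.22. NHP2, also a core protein, reached 30.7 FPKM from 19.3 in HT-29 and 1.14 from 0.612 in CaCo-2. DKC1, which encodes dyskerin, had a RIP level of 2.31 FPKM in the former line and 1.23 in the latter, each from an input of 0. TERC was listed in CaCo-2 at 1.81 against 0.807. All of these RNAs were at levels far below those of the SNORA71 copies in FPKM, a unit that favours short RNAs. Of the colon epithelium markers, 7 of 10 were listed for HT-29 and 5 of 10 for CaCo-2, among them KRT8, KRT18 and CDH1. EPCAM, CDX1 and CDX2 were listed in neither line. Of the markers of other cells, 0 of 4 were listed in either line. A gene appears only if its RIP level is higher, so these counts do not check the labelled cell type.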

How the data were processed

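RNA from nuclear lysate was sequenced after a TruSeq RNA preparation, per the labels' protocols. Tools named are TopHat2 2.0.8 with Bowtie2, then Cuffdiff, Cufflinks and CASAVA 1.4, and the build is hg19, per the submitters' processing notes. The treatment of multiply mapped reads and strandedness were not given in the sources used here. The authors deposited, per the file headers, FPKM values, p-values and q-values of 1 Cuffdiff comparison per line. The deposited log2 fold column, which the authors marked with a placeholder where input was 0, and their test statistic, a score, were not printed. HT-29 had 9880 transcripts and CaCo-2 11943. The number of unmapped sample columns was 0.

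From these, log2 ratios were computed with a pseudocount of 1 FPKM, which understates ratios at low levels. Those with at least 1 FPKM in 1 library of a line were kept. Library depth is unknown. The value of 1 fragment was the smallest step for a span, found without the SNORA71 entries with a log-quadratic fit over spans of 124 to 144 nucleotides. In simulated data it was recovered within 1% in 38 of 40 cases. Those data had no noise, followed the same log-quadratic form and kept the SNORA71 entries. They therefore do not check the fit as it was used here, nor the interpolated CaCo-2 input step. Fold intervals were scaled from the implied fragments. H/ACA and scaRNA transcripts were those named SNORA or SCARNA. Described were all SNORA71A to SNORA71D entries, SNORA71E, SNORA60, SNORA39, the hosts, 13 particle genes, neighbours within 50 kb, the RNAs adjacent in RIP level and the 3 nearest patterns per entry; not all of these are printed. Members and lists were chosen with earlier results of these data known. Start positions were converted to count from 1. Python 3.11.15, pandas 2.3.3, NumPy 2.4.6, SciPy 1.17.1 and matplotlib 3.10.9 were used. Other pseudocounts, filters, summing per gene and centring were tried.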

Additional observations from a re-analysis of the deposited data

How the results depend on the processing

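No paired analysis was possible because each group had 1 library. In HT-29 the log2 ratios of SNORA71A, SNORA71C and SNORA71D stayed within their counting intervals with a pseudocount of 0.1 or 10 FPKM or none. So did those of SNORA71B and SNORA71D in CaCo-2. Summing per gene could change nothing, because no copy had more than 1 listed entry in a line. SNORA71B in HT-29, listed at 0 in input, moved from 10.53 to 13.85 with 0.1 FPKM, since the pseudocount then sets its input. Centring on the H/ACA and scaRNA median gave -0.30 for SNORA71A, 0.55 for SNORA71C and 2.56 for SNORA71D in HT-29, and -1.93 for SNORA71B and -1.66 for SNORA71D in CaCo-2. Centring on those with input above 0, chosen after seeing the data, gave 0.22, 1.08 and 3.08, and -0.75 and -0.47. The number of all listed transcripts at least 2-fold higher in the RIP was 5529 in HT-29 and 4129 in CaCo-2. It was 7388 and 6802 with a pseudocount of 0.1 FPKM, and 324 and 166 with 10 FPKM. With at least 1 FPKM in both libraries it was 863 of 3429 and 338 of 2571. Without transcripts listed at 0 in input, also chosen after seeing the data, it was 2392 of 6743 (35.5%) and 1450 of 7437 (19.5%). Either of the last filters leaves fewer H/ACA and scaRNA transcripts. Those at least 2-fold higher in the RIP went from 17 of 23 to 7 of 13 (53.8%) in CaCo-2, and from 62 of 66 to 42 of 46 (91.3%) in HT-29. Depth limits SNORA71B in HT-29, with 0 input fragments and no fold, SNORA71D there, with 2, and both CaCo-2 copies.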
